A study of Mus musculus with 8 samples.

Results

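The genes described here carry the hormonal signals that start and stop lipolysis in fat. They are 9 genes: the adrenergic receptors Adrb1, Adrb3 and Adra2a, the natriuretic peptide receptors Npr1 and Npr3, the G protein subunit gene Gnas, the phosphodiesterase gene Pde3b, and the protein kinase A subunits Prkar2b and Prkaca. Members were taken by gene symbol from the array's probe annotation. Of the 9, 6 had at least 1 named probe (10 probes in all), out of 16593 genes with a named probe. Adrb1, Adrb3 and Adra2a were not analysed here. Only Npr3, Prkaca and Gnas gave a signal above background on at least 4 of the 8 arrays, against 8285 genes of the whole array.

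RNA of white adipose tissue (WAT) from the epididymal depot of 4-month-old C57BL6/J males was hybridised to Illumina mouse bead arrays, 1 array per sample. The 4 Agt Tg samples came from mice in which angiotensinogen, the precursor of the angiotensin peptides, was overexpressed in fat, and the 4 wild type (Wt) samples from C57BL6/J mice without the transgene. Per the study's text, both genotypes had been kept on a low fat diet and the aP2 promoter, which is active in macrophages as well as adipocytes, drove the transgene. The comparison asks whether the machinery of lipolytic signalling differs in expression between the genotypes.

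In adipocytes, noradrenaline acts on beta adrenergic receptors, which work through the stimulatory G protein alpha subunit to switch on adenylyl cyclase. The cyclic AMP that results frees the catalytic subunits of protein kinase A from their regulatory subunits, and the kinase then phosphorylates perilipin and hormone-sensitive lipase on the lipid droplet. Alpha-2 adrenergic receptors oppose this through inhibitory G proteins, and insulin opposes it by activating the phosphodiesterase that degrades cyclic AMP. Natriuretic peptides form a parallel route, in which Npr1 makes cyclic GMP while Npr3, the clearance receptor, removes the peptides without making cyclic GMP.

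Protein kinase A also acts in the nucleus through the factor CREB, which binds the cyclic AMP response element TGACGTCA or its shorter core TGACG. The 250 bases before each start were read from RefSeq (GRCm38.p6) for the members and are shown for 1 start of each gene measured above background, since CREB is known to act at such elements. The table held 12 starts of 7 members. Capitals mark TGACG on either strand (written CGTCA where it lies on the other strand), and each sequence runs 5′ to 3′ on the strand of the gene up to the base before its start. For Gnas the most downstream of 4 starts is shown, the start of the stimulatory alpha subunit, and for Prkaca the first of 2 starts.
Npr3 (chr15:11907372-11907621, minus strand): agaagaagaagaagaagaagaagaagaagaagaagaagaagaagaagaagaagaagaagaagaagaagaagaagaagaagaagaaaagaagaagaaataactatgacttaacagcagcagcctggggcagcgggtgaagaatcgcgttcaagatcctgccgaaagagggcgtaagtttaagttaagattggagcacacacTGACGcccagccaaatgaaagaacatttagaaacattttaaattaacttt
Prkaca (chr8:83972728-83972977, plus strand): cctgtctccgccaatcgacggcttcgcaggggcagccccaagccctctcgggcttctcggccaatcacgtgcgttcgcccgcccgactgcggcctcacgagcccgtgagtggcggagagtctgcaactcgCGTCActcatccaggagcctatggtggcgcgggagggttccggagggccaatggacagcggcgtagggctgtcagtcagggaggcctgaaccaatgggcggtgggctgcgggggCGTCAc
Gnas (chr2:174329756-174330005, plus strand): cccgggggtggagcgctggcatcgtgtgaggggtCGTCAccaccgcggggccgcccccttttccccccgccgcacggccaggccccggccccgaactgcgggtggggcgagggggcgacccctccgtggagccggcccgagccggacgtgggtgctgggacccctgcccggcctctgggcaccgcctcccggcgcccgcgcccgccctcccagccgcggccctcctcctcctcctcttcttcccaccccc

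The core TGACG began 50 bases before the start of Npr3, 120 and 6 bases before the first start of Prkaca, and 216 bases before that of Gnas. It was found in 7 of the 12 windows, in 5 of the 7 members, and in 17.8% of all 32851 promoter windows of the same length. The windows of Gnas starts 2 and 3 overlap and hold the same copy, which is counted in both. The count of members pools all starts of a gene, where the 17.8% is per window. Adrb1 (90 bases before the start) and Adra2a (69 bases) were the other members that held it, while Npr1 and Prkar2b did not. The full element TGACGTCA, which contains the core, was in 0 of the 12 windows and in 1.55% of all windows. The motif CCAAT, searched on both strands too, was found at 4 places in the Prkaca window shown, at 1 in that of Npr3 and at 0 in the Gnas window shown, against 33.8% of all windows with at least 1. The window of the second Prkaca start held 0 copies of TGACG and 0 of CCAAT. These matches describe the letters of the windows only.

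Between 11253 and 12284 of the 25696 probes were detected per array, and the correlation between arrays of a group ranged from 0.956 to 0.986. Agt itself was not higher on the arrays labelled Agt Tg (log2 intensity 7.58 ± 1.19 against 8.14 ± 0.57, SD, n = 4 each; limma adjusted p = 0.718), so the directions below rest on the labels. Which part of the transcript the Agt probe reads, and so whether it reads the transgene, was not tested. Wt replicate 3 was the lowest of the 8 arrays for 20.8% of the probes compared, more than any other array, and for 4 of the 5 member probes above background. The labels do not state that every sample is a different mouse, so p-values refer to the spread between these samples.

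Of the natriuretic peptide receptors, the clearance receptor Npr3 was well above background in WAT and its groups overlapped. Its log2 intensity was 10.76, 11.16, 10.74 and 10.93 on Agt Tg replicates 1 to 4 and 11.04, 11.29, 10.50 and 10.84 on Wt replicates 1 to 4. The lowest and the highest values were both on Wt arrays, and all 4 Agt Tg values lay between them. The means were 10.89 ± 0.19 in Agt Tg and 10.92 ± 0.33 in Wt (SD, n = 4), a log2 difference of -0.023 ± 0.18 (SE) with an adjusted p of 0.978 in limma and an exact two-sided permutation p of 0.943. The 95% interval of the difference, from -0.41 to 0.36, covers ratios of Agt Tg to Wt from 0.754 to 1.29. Changes within that range are compatible with the values of 4 arrays a group. The direction of the difference turned when 1 array was left out, from -0.16 to 0.10 over the 8 arrays.

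Npr1, the receptor that makes cyclic GMP, was above background on 1 array alone. Agt Tg replicate 4 had a log2 intensity of 5.48 there (the only detection below the limit of 0.05), and the other 7 arrays lay between 4.51 and 4.90. No fold is given, since neither group was above background.

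Gnas, which encodes the stimulatory alpha subunit that couples the beta receptors to adenylyl cyclase, had 2 probes above background on all 8 arrays. The brighter read 9.33, 8.88, 8.77 and 8.97 in Agt Tg and 8.69, 9.65, 8.80 and 9.07 in Wt (replicates 1 to 4, log2 intensity). Wt replicate 2 was highest and Wt replicate 1 lowest, with the Agt Tg values between. The difference was -0.064 ± 0.22 (SE; limma adjusted p = 0.946, exact two-sided permutation p = 0.771), with a 95% interval from -0.54 to 0.41. The dimmer probe read 7.62, 8.00, 7.19 and 8.06 in Agt Tg and 7.56, 7.95, 6.84 and 8.17 in Wt. Replicates 2 and 4 of each group were above replicates 1 and 3 on this probe. Its difference was 0.090 ± 0.29 (SE; limma adjusted p = 0.943, exact two-sided permutation p = 0.8). The Gnas locus also makes other transcripts from starts further upstream, and the other 2 Gnas probes, annotated to other transcript models of the locus, were above background on 1 and 0 of the 8 arrays.

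Prkaca, the main catalytic subunit of protein kinase A, gave the largest difference among the members, and its probes did not give the same picture. The brighter probe read 11.004, 10.86, 11.18 and 11.09 in Agt Tg and 10.87, 10.96, 9.98 and 10.70 in Wt. Wt replicate 3 stood lowest, and Wt replicates 1 and 2 lay just above the lowest Agt Tg array. The means were 11.03 ± 0.13 and 10.63 ± 0.45 (SD, n = 4), a difference of 0.40 ± 0.20 (SE) or 1.32-fold. It did not pass in limma (p = 0.0647, adjusted p = 0.525) or in the exact two-sided permutation test (p = 0.0857), and the 95% interval ran from -0.029 to 0.84. Without Wt replicate 3 the difference was 0.19 (adjusted p = 0.597).

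The dimmer Prkaca probe is annotated to the same transcript. It read 9.86, 10.18, 9.80 and 10.26 in Agt Tg and 10.40, 10.38, 9.53 and 9.99 in Wt, where the 2 highest values and the lowest were all on Wt arrays. The difference was -0.046 ± 0.20 (SE; limma adjusted p = 0.960, exact two-sided permutation p = 0.914). The gap between the probes, taken within each array, ran from 0.68 to 1.38 in Agt Tg and from 0.45 to 0.71 in Wt. That comparison was chosen after the values were seen, and it did not pass either (exact two-sided permutation p = 0.0571 for Prkaca and 0.6 for Gnas, adjusted over the 2 genes 0.114 and 0.6). The mean of both Prkaca probes differed by 0.18.

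Prkar2b, the regulatory subunit that predominates in adipocytes, and Pde3b, the phosphodiesterase through which insulin restrains lipolysis, were not above background on most arrays. Prkar2b was detected on 3 arrays, Agt Tg replicates 2 and 3 and Wt replicate 2, with log2 intensities of 5.16, 5.05 and 5.21. Its other values lay between 4.53 and 4.92. Pde3b was detected on 0 of 8 arrays, with values from 4.42 to 4.72 and no detection p below 0.229. White adipocytes are known to express both genes, and the adipocyte markers on these arrays averaged 10.4 to 11.1, so absence of signal from these probes does not say that the transcripts were absent.

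**Figure D1:**
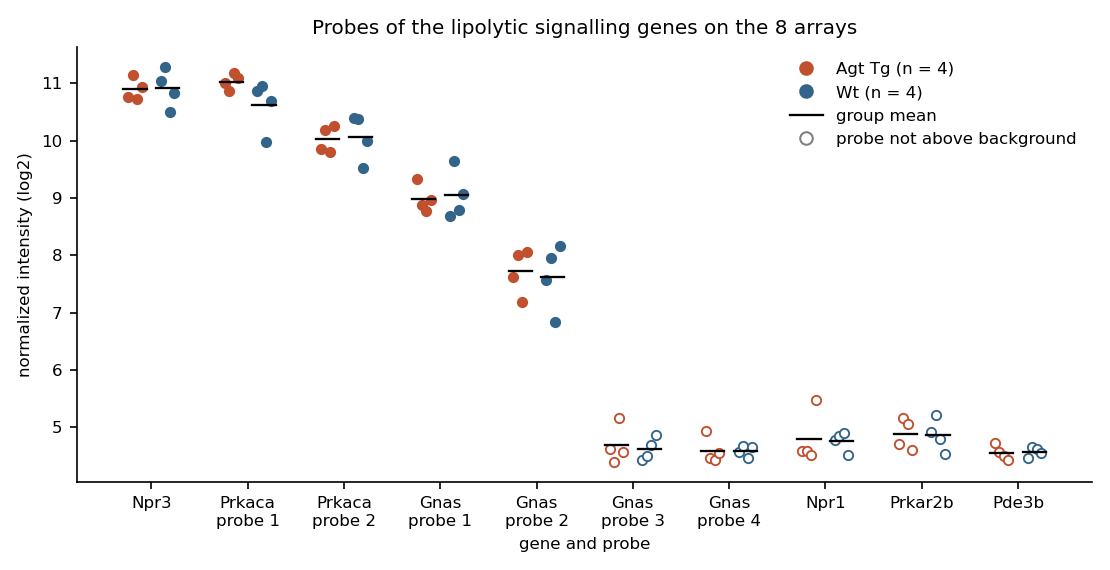
Normalized log2 intensity of the 10 member probes on each array, with Agt Tg and Wt arrays as separate points, group means as bars and open points for probes not above background. The 5 probes above background overlap between the groups, the brighter Prkaca probe has its lowest point at 9.98 on Wt replicate 3, and the other 5 probes lie between 4.39 and 5.48.

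Over the members measured, 0 of 3 reached an unadjusted p under 0.05 in limma, where 3.93% of all genes compared were higher and 5.35% lower in Agt Tg at that threshold. None reached an adjusted p under 0.05, and 0% of all genes did. The groups overlapped for each of the 3, where 6.36% of all genes had groups that did not overlap. Their median difference was -0.023, beside 0.014 over all genes. Leaving out Wt replicate 1 or Wt replicate 2 brought 1 member, Prkaca, to an unadjusted p under 0.05, with differences of 0.49 and 0.52 (adjusted p = 0.746 and 0.450).

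Across the 8 arrays no relation between the 3 genes passed its test. Npr3 and Prkaca gave a Pearson r of 0.51 (exact permutation p = 0.205) and a Spearman rho of 0.024 (p = 0.977, exact permutation). Npr3 and Gnas gave 0.42 (exact permutation p = 0.298) and 0.31 (p = 0.462, exact permutation), and Prkaca and Gnas 0.24 (exact permutation p = 0.545) and 0.048 (p = 0.935, exact permutation). Adjusted over the 3 pairs, the permutation p-values of r were 0.448, 0.448 and 0.545, and those of rho 0.977 each. Without the arrays farthest from the median of Npr3, Wt replicates 2 and 3, the first and second r turned to -0.41 and -0.46, so both rest on those arrays. Without Agt Tg replicate 3 and Wt replicate 3, the r of Prkaca and Gnas was 0.26.

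The genes whose values ran most like those of Npr3, of 8284 compared over the 8 arrays, were Nelfe (r = 0.980), Ankrd27 (0.969), Miga2 (0.967), Ccnd3 (0.961) and Rap2c (0.956). Nelfe encodes a subunit of the negative elongation factor, Miga2 a mitochondrial outer membrane protein, Ccnd3 cyclin D3 and Rap2c a small GTPase. They are given as a description, since they were picked for the highest r of all genes compared. Without Wt replicates 2 and 3 the r values lay between 0.912 and 0.937.

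Around the members, 12 lists of the same pathway held 134 genes, of which 118 had a named probe and 67 were measured above background. Of the 67, 36 were higher and 31 lower in Agt Tg, with a median log2 difference of 0.035. None passed at adjusted p in limma (lowest 0.403). At an unadjusted p under 0.05, 3 were higher and 2 lower, 7.46% of the 67, beside 3.93% higher and 5.35% lower over all genes. Groups did not overlap for 3 of the 67 (Furin, Grk6 and Crem), beside 6.36% of all genes. Of the 67, Prkg1, Gng5 and Pde1c were above background on 1 Agt Tg array and 3 Wt arrays, so their Agt Tg means lie near background and their differences are plotted but not stated as values. Leaving out 1 array at a time gave 1 to 7 higher and 0 to 4 lower. Median scaling of the arrays in place of quantile normalization moved the median over all genes from 0.014 to -0.12 and gave 50 genes higher and 813 lower at that threshold, against 326 and 443, and 0 and 4 of the pathway genes. In bulk tissue, fewer cells of a type and less RNA per cell cannot be told apart.

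**Figure D2:**
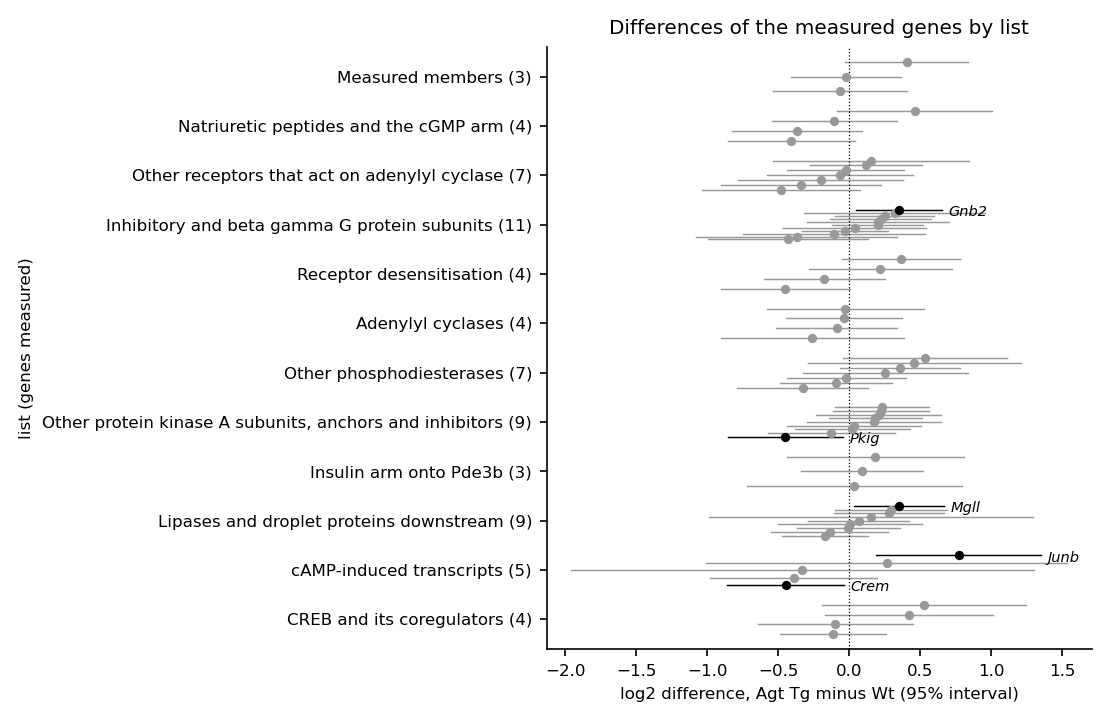
Log2 difference of Agt Tg minus Wt (points) with its 95% interval (lines) for the 3 measured members and the 67 measured pathway genes, by list. Black marks the 5 genes at an unadjusted p under 0.05, and the intervals of all other genes include 0.

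Beside Npr3, 4 of 12 genes of the natriuretic and cyclic GMP arm were measured, with a median of -0.24 that includes Prkg1, and none reached an unadjusted p under 0.05. Npr2, the receptor for C-type natriuretic peptide, read 7.47, 8.08, 7.66 and 8.34 in Agt Tg and 8.31, 8.37, 8.37 and 8.14 in Wt. Agt Tg replicates 1 and 3 were low and replicates 2 and 4 were near the Wt arrays, for a difference of -0.41 ± 0.21 (SE; limma adjusted p = 0.532). Prkg1, the kinase that cyclic GMP activates, was detected on 1 Agt Tg array and 3 Wt arrays. Gucy1a1, a subunit of the soluble guanylyl cyclase, differed by -0.10 ± 0.20 (SE), and its 2 other probes by -0.29 and 0.12. The peptide genes Nppa, Nppb and Nppc and the protease gene Corin were detected on 0 of 8 arrays, and Pde5a on 3.

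Furin, a proprotein convertase that matures many precursors, natriuretic peptides among them, had groups that did not overlap. It read 11.46, 11.38, 11.47 and 11.46 in Agt Tg and 11.30, 11.37, 10.01 and 11.24 in Wt. Wt replicate 3 was far below the rest, and the highest Wt array (11.37) was just under the lowest Agt Tg array (11.38). The difference was 0.46 ± 0.25 (SE; limma adjusted p = 0.562, exact two-sided permutation p = 0.0286, the smallest possible here), and 0.13 without Wt replicate 3. Its other probe differed by 0.34.

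The other adrenergic receptors gave no measured gene: Adra1b was detected on 0 arrays, and no Adra2c probe was detected on more than 1. Among the further receptors that raise or lower cyclic AMP in fat, 7 of 15 were measured with a median of -0.065 (-0.24 with median scaling), and none reached an unadjusted p under 0.05. Hcar2, the niacin and ketone body receptor that inhibits lipolysis, read 7.70, 8.21, 7.36 and 8.37 in Agt Tg and 8.21, 8.95, 8.03 and 8.38 in Wt. Its difference was -0.48 ± 0.26 (SE; limma adjusted p = 0.555), with overlapping groups. Mc2r, the corticotropin receptor, differed by -0.34 ± 0.26 (SE), Ptger3, a prostaglandin receptor, by -0.20 ± 0.27 (SE), and Ffar2, a receptor for short-chain fatty acids, by 0.12 ± 0.18 (SE). Ptger3 was detected on 2 arrays of each group.

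Downstream of the receptors, 11 of 15 inhibitory and beta gamma G protein genes were measured, with a median of 0.20 (0.068 with median scaling). Of the 11, 7 were higher in Agt Tg. Gnb2, a beta subunit, reached an unadjusted p under 0.05. It read 11.69, 11.39, 11.71 and 11.57 in Agt Tg and 11.20, 11.09, 11.15 and 11.50 in Wt. All Wt arrays but replicate 4 lay below the lowest Agt Tg array. The difference was 0.35 ± 0.14 (SE) or 1.28-fold (limma p = 0.0257, adjusted p = 0.464, exact two-sided permutation p = 0.0571). Gnb1, another beta subunit, differed by 0.25 ± 0.16 (SE) and Gnb5 by 0.22 ± 0.16 (SE). Gng5, a gamma subunit, was detected on 1 Agt Tg array and 3 Wt arrays.

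The kinases that desensitise receptors differed in opposite directions without passing. Grk5, a receptor kinase, differed by -0.45 ± 0.21 (SE; limma adjusted p = 0.510, exact two-sided permutation p = 0.0857). Grk6, of the same family, differed by 0.36 ± 0.19 (SE; limma adjusted p = 0.549) with groups that did not overlap (exact two-sided permutation p = 0.0286). On both genes Agt Tg replicate 2 was above the other Agt Tg arrays. The arrestins, which uncouple receptors, lay at 0.22 ± 0.23 (SE) for Arrb2 and -0.18 ± 0.20 (SE) for Arrb1, whose 3 other probes differed by 0.11 to 0.47.

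Of the adenylyl cyclases, which make cyclic AMP, 4 of 10 were measured, with differences from -0.26 (Adcy7) to -0.029 (Adcy9) that were no larger than their errors. Adcy4 and Adcy6 lay at -0.037 ± 0.19 and -0.090 ± 0.19 (SE), and the 2 other probes of Adcy4 at -0.38 and -0.20. Each of the 4 turned positive when 1 array was left out, Adcy4 (0.12) and Adcy6 (0.0033) without Agt Tg replicate 3, Adcy7 (0.0074) without Agt Tg replicate 2 and Adcy9 (0.14) without Agt Tg replicate 4. Among the other phosphodiesterases, which degrade cyclic nucleotides, 7 of 15 were measured with a median of 0.25 (0.11 with median scaling), and none reached an unadjusted p under 0.05. Pde1b read 9.80, 9.77, 9.89 and 9.66 in Agt Tg and 9.47, 9.72, 8.26 and 9.55 in Wt. Wt replicate 3 again stood far below, and the difference of 0.53 ± 0.27 (SE; limma adjusted p = 0.532) was 0.20 without it. Pde4d differed by 0.36 ± 0.20 and Pde1a by 0.46 ± 0.35 (SE). The 2 other probes of Pde1a lay at -0.17 and -0.091. Pde1c was detected on 1 Agt Tg array and 3 Wt arrays. Pde3a, the paralog of Pde3b, was detected on 2 Agt Tg arrays and 0 Wt arrays.

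Among the other protein kinase A genes, 9 of 16 were measured with a median of 0.17 (0.019 with median scaling), and 7 of the 9 were higher in Agt Tg (5 with median scaling). The 2 lower genes were Prkar1a, a regulatory subunit (-0.13 ± 0.21, SE), and Pkig, an inhibitor that binds the free catalytic subunit. Pkig alone of the 9 reached an unadjusted p under 0.05. It read 7.80, 7.82, 8.16 and 8.26 in Agt Tg and 8.49, 8.11, 8.64 and 8.60 in Wt. Only Wt replicate 2 lay within the Agt Tg range. The difference was -0.45 ± 0.19 (SE) or 0.732-fold (limma p = 0.0325, adjusted p = 0.480, exact two-sided permutation p = 0.0857), and its 2 other probes differed by -1.01 and -0.10. Pkia, an inhibitor of the same family, differed by 0.22 ± 0.16 (SE), the anchoring protein gene Akap9 by 0.23 ± 0.15 (SE) and Prkacb, the catalytic paralog of Prkaca, by 0.18 ± 0.15 (SE). Of the insulin arm that acts on Pde3b, 3 of 7 genes were measured, and Irs2 (0.091 ± 0.20), Pdpk1 (0.18 ± 0.29) and Akt2 (0.035 ± 0.35, SE) lay within their errors of 0, and all 3 turned negative with median scaling.

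The lipases, droplet proteins and lipid carriers at the lipolytic end of the pathway were all measured (9 of 9), with a median of 0.066 that turned to -0.061 with median scaling, where all genes had a median of -0.12. Mgll, the lipase that splits monoglycerides, read 12.87, 13.28, 12.83 and 13.32 in Agt Tg and 12.59, 12.90, 12.79 and 12.62 in Wt. Agt Tg replicates 2 and 4 stood above all Wt arrays, and replicates 1 and 3 lay in the upper part of the Wt range. The difference was 0.35 ± 0.15 (SE) or 1.27-fold (limma p = 0.0331, adjusted p = 0.480, exact two-sided permutation p = 0.0857) on the brightest probe, and its 2 other probes differed by -0.0051 and 0.065. Pnpla2, the adipose triglyceride lipase, differed by 0.29 ± 0.18 (SE) and Lipe, the hormone-sensitive lipase, by 0.28 ± 0.18 (SE), neither past the threshold (limma adjusted p = 0.609 and 0.618). On Pnpla2, Lipe and Mgll alike, Agt Tg replicates 2 and 4 were the highest arrays. They had the lowest macrophage marker means of the Agt Tg group (8.86 and 9.23, against 10.03 and 10.01 on replicates 1 and 3). Their white adipocyte marker means were the highest of that group (11.08 and 11.004, against 10.59 and 10.43). Endothelial, smooth muscle, mesothelial, epididymis and brown adipocyte means were also higher on them, and fibroblast means lower. The part of these cell types in the lipase differences was not tested. G0s2, an inhibitor of the triglyceride lipase, differed by -0.17 ± 0.14 (SE).

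Transcripts that cyclic AMP is known to induce lay on both sides of 0. Of 13, 5 were measured, 2 higher and 3 lower, with a median of -0.33 (-0.47 with median scaling). That median is the value of Fos (-0.33 ± 0.75, SE), which ran from 4.87 to 9.38 within Agt Tg. Junb, an immediate early factor, read 9.61, 8.79, 10.004 and 9.88 in Agt Tg and 8.85, 8.30, 8.81 and 9.25 in Wt. Agt Tg replicate 2 lay among the Wt arrays and the other 3 lay above them. The difference was 0.77 ± 0.27 (SE) or 1.70-fold (limma p = 0.0132, adjusted p = 0.403, exact two-sided permutation p = 0.114).

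Crem, a CREB family gene whose short form ICER represses cyclic AMP transcription, had groups that did not overlap. It read 5.30, 5.59, 5.31 and 5.58 in Agt Tg and 5.85, 5.76, 5.93 and 6.04 in Wt. Every Wt array was above every Agt Tg array, at low intensity. The difference was -0.45 ± 0.19 (SE) or 0.733-fold (limma p = 0.0348, adjusted p = 0.483, exact two-sided permutation p = 0.0286), and -0.14 on the authors' log2 values, which carry no background correction. Per1, a clock gene with a cyclic AMP response element, differed by -0.39 ± 0.27 (SE) and Atf3 by 0.26 ± 0.59 (SE). Nr4a3 and Ucp1 were detected on 0 arrays, and Nr4a1 on 1. Of CREB and its partners, 4 of 9 were measured, among them Sik2, a kinase that restrains the coactivators, at 0.53 ± 0.33 (SE) and the coactivator Crtc3 at 0.42 ± 0.27 (SE), with no unadjusted p under 0.05.

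**Figure D3:**
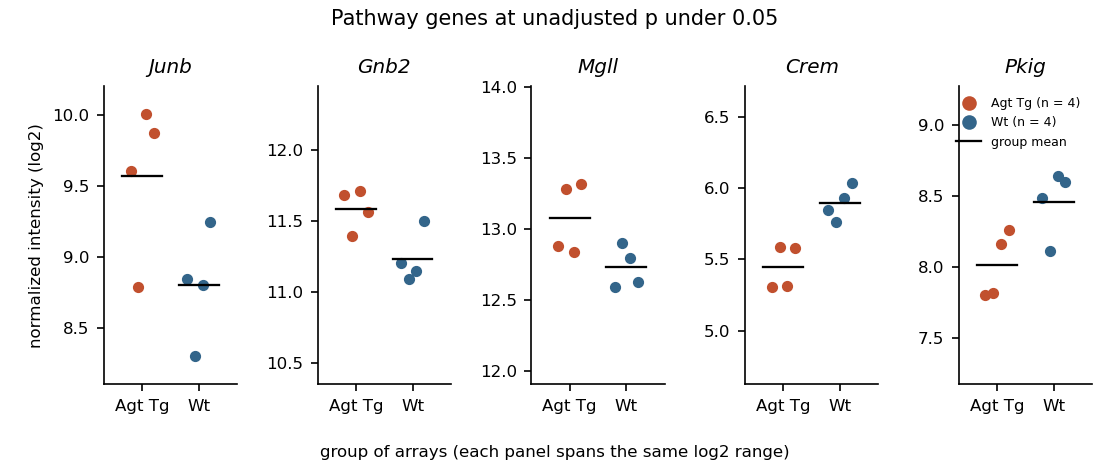
Normalized log2 intensity of the 5 pathway genes at an unadjusted p under 0.05 on each array, with group means as bars and the same log2 span in every panel. Crem alone has groups that do not overlap, with Agt Tg arrays from 5.30 to 5.59 and Wt arrays from 5.76 to 6.04.

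The white adipocyte markers, of which 9 of 10 were measured, had array means of 10.4 to 11.1 in both groups. These means hide uneven markers. Retn averaged 5.08 and was detected on 5 of 8 arrays, and Fabp4 ran from 6.81 to 9.83 within Agt Tg. Epididymis and testis markers were not all silent, with 2 of 7 measured. Lcn8 was detected on all 8 arrays, and Adam7 on 3 Agt Tg arrays and 1 Wt array. Macrophage markers averaged 8.86 to 10.03 in Agt Tg and 9.45 to 10.02 in Wt, and 7 of the 10 measured were lower in Agt Tg. Cd163, a scavenger receptor of macrophages, had groups that did not overlap, with a log2 difference of -1.20 ± 0.20 (SE; limma p = 5.8e-05, adjusted p = 0.224, exact two-sided permutation p = 0.0286). It alone of the 10 had groups without overlap, beside 6.36% of all genes, and it alone had an unadjusted p under 0.05 in limma. The rest ran from -0.58 (Ctss) to 0.19, with Mrc1 (0.19), Itgam (0.19) and Cd14 (0.11) higher in Agt Tg. Markers of B and plasma cells (3 measured) averaged 4.72 to 6.83 in Agt Tg and 6.04 to 8.42 in Wt, and those of T cells (3 measured) 5.40 to 6.41 and 6.06 to 7.19. All 6 were lower in Agt Tg, 4 of them at an unadjusted p under 0.05 in limma (Cd79b, Mzb1, Cd3d and Cd3e). Over all genes, 5.35% were lower at that threshold. None of the 6 passed at adjusted p in limma (lowest 0.348, for Mzb1). In Agt Tg, Cd79b and Mzb1 were detected on 3 arrays and Cd3d on 2, so some of their Agt Tg values lie at background. Of nerve and Schwann cell markers 0 of 7 were measured, including Th, the noradrenaline synthesis enzyme, which was detected on 1 array. Brown adipocyte markers averaged 6.27 to 6.70 in Agt Tg and 6.59 to 6.97 in Wt, with Ucp1 detected on 0 arrays. The part of these cell types in the differences above was not tested.

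**Figure D4:**
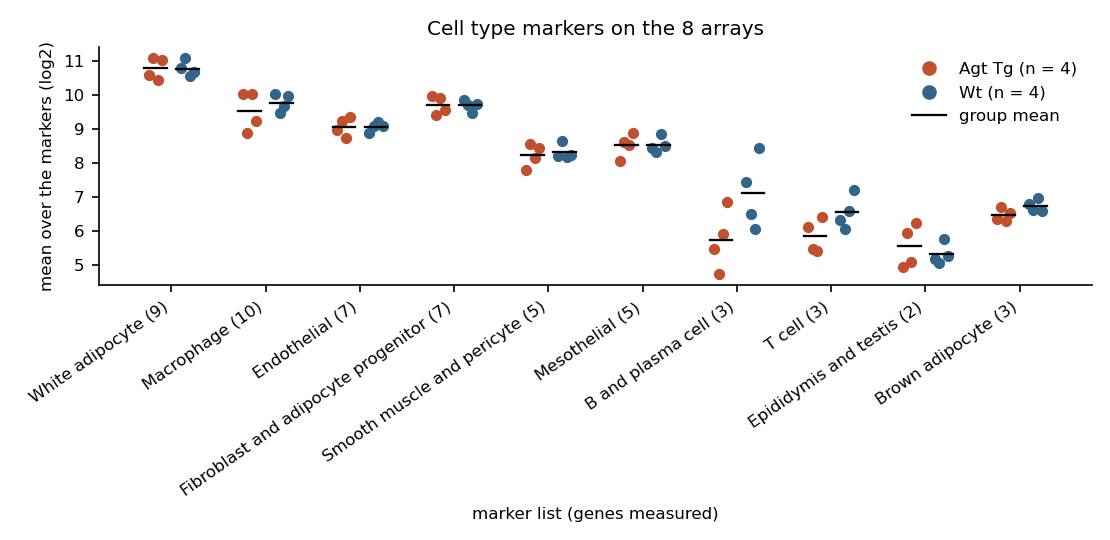
Mean normalized log2 intensity over the measured markers of each cell type list on every array, with group means as bars. White adipocyte means lie between 10.4 and 11.1 in both groups, and B and plasma cell means reach from 4.72 to 8.42.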

How the data were processed

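The members and gene lists were chosen with earlier results of these data known. The authors deposited bead intensity values, not log transformed, beside which each array has a column of detection p-values, and a table of log2 values made with lumi (named in the submitters' processing notes, version and settings not given in the sources used here). Each deposited log2 column kept the order of its own array's intensities (lowest rank correlation 1), had a median of 7.11 and matched quantile normalization without background correction.

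Groups and replicate numbers came from the labels. Intensities were corrected and quantile normalized with neqc (offset 16) in limma 3.58.1, R 4.3.3. Of 25696 probes, 23978 had 1 gene symbol, from the platform annotation updated by Entrez ID to RefSeq GRCm38.p6, and 1718 had none. A blank row (1) and 1 probe of the log2 table alone were left out. Kept were the 11624 probes detected (p under 0.05) on 4 or more arrays; these were fitted by group with lmFit and eBayes (trend), and adjusted by Benjamini-Hochberg over all kept probes. The brightest kept probe stood for a gene. All member probes were named, with up to 4 genes of smallest p per list and the 5 genes most like Npr3; a like search around Adrb3 was not analysed here. Single differences were also tested by exact permutation over 70 assignments (smallest two-sided p 0.0286), correlations over 40320 orders. The fit was tested on simulated arrays with independent noise for each probe. That test cannot tell how the fit behaves where probes vary together. The number of arrays limits the precision.

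Alternatives were the authors' log2 values, quantile normalization alone, scaling by array medians, offset 50, all probes, a stricter detection limit (p under 0.01, 8 of 8 arrays), averaged probes, robust or untrended variance, weighted arrays, a replicate block and each array left out.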

Additional observations from a re-analysis of the deposited data

Results flagged for a closer look

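In 6 of 96 groups of 4 arrays tested, 1 array stood apart from the other 3 of its group by Dixon's 95% limit for 4 values, where chance gives about 1 in 20. Wt replicate 3 stood apart on 3 genes: Furin at 10.01 (others 11.24 to 11.37), Arrb1 at 8.34 (others 7.66 to 7.73) and Pde1b at 8.26 (others 9.47 to 9.72). Agt Tg replicate 2 stood apart on Grk5 at 7.57 (others 6.83 to 6.94), on Grk6 at 7.95 (others 7.53 to 7.59) and on Furin at 11.38 (others 11.46 to 11.47), where the range is small. No member probe stood apart in this way. Without Agt Tg replicate 2 the Grk5 difference was -0.61 and that of Grk6 0.27 on the log2 scale.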

How the results depend on the processing

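No member or pathway gene passed at adjusted p in limma under any of the 19 alternatives (lowest 0.205, for Junb; in the fit as reported 0 of 3 members and 5 of 67 pathway genes had an unadjusted p under 0.05). Of 46 genes followed, 32 kept the sign of their difference under each alternative that measured them and 14 did not, where Prkg1, Ptger3, Gng5 and Pde1c had no value under the strict detection limit and in some fits without 1 array, and 6 others (Adcy7, Adcy9, Akt2, Atf3, Crem and Crtc1) had none under that limit. Apart from the average over probes, each alternative followed only the brightest probe of a gene. On that probe or the mean of both, Prkaca stayed positive, from 0.18 to 0.52, while its dimmer probe lay at -0.046 in the fit as reported. Leaving out 1 array at a time, the log2 difference ran from -0.16 to 0.10 for Npr3, from -0.19 to 0.14 for Gnas, from -0.23 to 0.0025 for Gucy1a1, from -0.079 to 0.23 for Ffar2, from -0.13 to 0.12 for Adcy4, from -0.23 to 0.0033 for Adcy6, from -0.49 to 0.0074 for Adcy7, from -0.20 to 0.14 for Adcy9, from -0.095 to 0.20 for Irs2, from -0.090 to 0.37 for Pdpk1, from -0.31 to 0.27 for Akt2, from -0.21 to 0.82 for Atf3 and from -0.26 to 0.076 for Crtc1. Averaged over probes, Gnas lay at 0.013 and Arrb1 at 0.20. Median scaling gave -0.054 for Irs2, -0.0018 for Pdpk1 and -0.14 for Akt2, and array weights gave -0.013 for Ffar2, -0.081 for Pdpk1 and -0.26 for Akt2. The causes were not tested.

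Leaving out 1 array gave 0 to 1 members, 1 to 7 pathway genes higher and 0 to 4 lower at an unadjusted p under 0.05. The 7 came without Wt replicate 2, the 0 without Wt replicate 4 and 4 without Agt Tg replicate 4 or Wt replicate 3. Without Wt replicate 1, 1 was higher and 1 lower, without Wt replicate 3, 5 were higher, and without Agt Tg replicate 1 or 3, 1 was lower. Median scaling gave 0 higher and 4 lower, eBayes without trend 1 higher and array weights 5 lower. Without the detection filter, 16593 genes in place of 8285 were compared, among them 6 members in place of 3. There 5 pathway genes in place of 3 were higher, and whether the added ones came from the newly compared genes was not tested. On values centred on each group, same-numbered arrays correlated at 0.33, 0.39, -0.037 and -0.082. Of the 4 Agt Tg arrays, 2 correlated best with their own number. Whether replicate numbers pair the arrays was not tested, and these mixed values do not settle it. With the replicate number as a block, 6 pathway genes were higher and the Prkaca adjusted p was 0.451. For Npr1, Prkar2b and Pde3b, signal over background set the limit.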
